A study of Homo sapiens with 6 samples.

Results

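The genes described here are 10 inhibitors of Wnt signalling, most of which the pathway itself can switch on: NKD1, NKD2, AXIN2, DKK1, DKK3, DKK4, KREMEN1, NOTUM, WIF1 and APCDD1. They were chosen by gene name, and a probe set counted as a member when the array's annotation gave it 1 of these symbols or the same Entrez gene. This found 17 of the 45033 probe sets on the array, and all 10 of the genes among its 23595 gene symbols. Of these 17 probe sets, 12 were bright enough to test, belonging to 7 genes, and 5 were not. A probe set was tested when its intensity lay above the median of its array on at least 2 of the 6 arrays. DKK3, DKK4 and WIF1 had no probe set that passed, and 1 of the 3 probe sets of KREMEN1 did not pass.

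Total RNA of HEK293 cells, a line made from human embryonic kidney with adenovirus DNA, was hybridised to 6 single-colour NimbleGen arrays, with 2 arrays in each of 3 groups. These were cells given an shRNA against SET8 and then Wnt3a medium, cells given a control shRNA and then Wnt3a medium, and cells given a control shRNA and then control medium. Cells were cultured in DMEM with 10% FBS, transfected for about 40 hours and then given the medium for 7 hours, so every group, controls included, had been transfected and given a conditioned medium. The series' own text calls the transfected reagent both an siRNA and an shRNA, and what cells produced either medium was not given in the sources used here. A group with SET8 shRNA in control medium was not analysed here, and whether SET8 alters the size of a Wnt3a response could not be tested as an interaction. Nothing in the labels says that the 2 arrays of a group came from separate cultures, so p-values measure only how far these samples differ, and that spread may be technical.

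Wnt ligands bind a Frizzled receptor together with the co-receptor LRP5 or LRP6, recruit Dishevelled, and stop the destruction complex built on Axin from removing beta-catenin. Beta-catenin then enters the nucleus and activates genes with TCF and LEF factors. Several of those genes encode brakes on the pathway. The inhibitors described here act on the ligand (NOTUM, WIF1) or at the receptors (DKK1, DKK4, KREMEN1, APCDD1). Others act on Dishevelled (NKD1, NKD2) or on beta-catenin itself (AXIN2). SET8, named SETD8 on the array and now KMT5A, is the enzyme that adds a single methyl group to lysine 20 of histone H4, and the study asked whether that mark takes part in the activation of Wnt target genes.

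Promoter sequence, from the RefSeq table of build GRCh38.p14, was at hand for 4 of the 10 genes. The 250 bases before the annotated start are shown for the 3 of them that were bright enough to test. DKK1 was among the members with the largest Wnt3a difference, while NKD2 and APCDD1 had small ones. No window was at hand for NKD1, AXIN2 or NOTUM. Capitals mark matches to the core words bound by TCF and LEF factors, searched on both strands as CTTTGAA or CTTTGAT or CTTTGTA or CTTTGTT, with no overlap between matches. The DKK1 window is chr10:52314031-52314280, the NKD2 window chr5:1008552-1008801 and the APCDD1 window chr18:10454385-10454634, all on the plus strand and written 5′ to 3′.
DKK1: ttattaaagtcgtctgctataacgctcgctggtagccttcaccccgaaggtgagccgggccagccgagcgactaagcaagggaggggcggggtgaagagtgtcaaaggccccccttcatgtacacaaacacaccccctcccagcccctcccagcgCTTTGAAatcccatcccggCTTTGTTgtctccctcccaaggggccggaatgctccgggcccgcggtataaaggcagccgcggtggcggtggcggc
NKD2: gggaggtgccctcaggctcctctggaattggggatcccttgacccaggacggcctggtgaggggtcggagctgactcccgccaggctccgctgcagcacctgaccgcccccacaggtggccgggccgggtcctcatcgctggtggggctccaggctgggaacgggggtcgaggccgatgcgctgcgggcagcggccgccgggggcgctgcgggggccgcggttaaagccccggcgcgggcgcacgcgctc
APCDD1: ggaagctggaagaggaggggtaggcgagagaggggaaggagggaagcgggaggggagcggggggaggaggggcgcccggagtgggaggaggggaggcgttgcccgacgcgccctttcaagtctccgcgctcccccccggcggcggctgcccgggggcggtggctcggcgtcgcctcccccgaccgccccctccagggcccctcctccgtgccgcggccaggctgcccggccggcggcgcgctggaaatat
The DKK1 window held 2 matches, CTTTGAA at 95 to 89 bases and CTTTGTT at 76 to 70 bases before the start, both on the strand of the gene. NKD2 and APCDD1 held none, and neither did WIF1, whose window is not shown. Of 35116 promoters of the same length, 12% held at least 1 of the 4 words and 1.21% held 2 or more. A match is only a description of letters, and many TCF and LEF sites lie outside such windows. The part of these words in the Wnt3a differences was not tested.

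On the arrays as a whole, the SET8 transcript was lower with SET8 shRNA. Its brighter probe set read 8.97 and 9.65 on the log2 scale with SET8 shRNA, against 11.20 and 10.53 with control shRNA in Wnt3a medium and 11.03 and 10.75 in control medium. The difference between the shRNAs was -1.56 (SE 0.34, limma adjusted p = 0.236), which did not pass the threshold, and on the other probe set it was -1.11 (SE 0.28, adjusted p = 0.326). Replicate arrays correlated at 0.972 to 0.985 across all probe sets, and between replicates 1.86% to 8.98% of those tested lay over 2-fold apart. Of 9 genes that HEK293 cells are known to express, 7 were bright enough to test, among them the neurofilament genes NEFL and NEFM, while EYA1 and INA were not. Of 9 fibroblast markers 2 were bright enough, COL1A1 and COL3A1, and their summed intensity over all 9 was 4651 to 5037 with SET8 shRNA, 6281 to 7157 with control shRNA in Wnt3a medium and 6035 to 6353 in control medium. Summed intensity of 7 blood markers was 845 to 942, 1475 to 1914 and 1217 to 1759 in the same groups. Among these PTPRC and HBB were too dim to test, while HBA1 and HBA2 were bright enough. Both sums were lower with SET8 shRNA. The fibroblast sum is mostly COL1A1, which in Wnt3a medium was at -0.50 for SET8 minus control shRNA, and at -0.01 on its other probe set. Gene by gene, 4 of the 9 fibroblast markers were higher and 5 lower in that comparison. With control shRNA, 7 of the 9 were lower in Wnt3a medium than in control medium. Their median difference was -0.85, with the untested DCN at -2.09 and COL1A2 at -1.58. COL3A1 was at -0.85, and at -0.04 on its other probe set. It was bright enough only on the control medium arrays, where it was high, so its unadjusted p of 0.0388 in the limma model across all genes is a description. The part of these markers in the differences below was not tested.

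Levels below are log2 intensities of single arrays, replicate 1 before replicate 2, and a difference of 1 is a 2-fold difference. Levels of different probe sets are not set against each other, since probes differ in how brightly they bind. The 1994 random control probes of the array gave 4.66 to 4.84 on the same scale. In RNA from whole cultures, fewer cells making a transcript and less transcript per cell cannot be told apart.

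The comparison of Wnt3a with control medium, both with control shRNA, asked which genes respond to Wnt3a. Among the inhibitors NKD1, DKK1 and AXIN2 stood out: every probe set of these 3 genes lay at least 1.5-fold higher on both Wnt3a arrays than on both control arrays. NOTUM averaged about 1 log2 unit higher, and NKD2, KREMEN1 and APCDD1 lay within 0.6 of control medium on all of their tested probe sets. A Benjamini-Hochberg adjusted p under 0.05 was reached by no probe set of any gene in limma, so the background is 0.0% of the 23808 tested (0 called), and 0 of the 12 tested member probe sets were called. At an unadjusted p under 0.05, 7 of these 12 were higher, from 5 genes, against 1.61% of all tested probe sets (384), and 0 were lower against 0.529% (126). Of those 7, 2 were the DKK1 probe sets, which entered the test only through arrays with Wnt3a medium. The AXIN2 set NM_004655 was above the median on only 1 control medium array and passed with the help of Wnt3a arrays. The count is thus a description and not support.

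**Figure D1:**
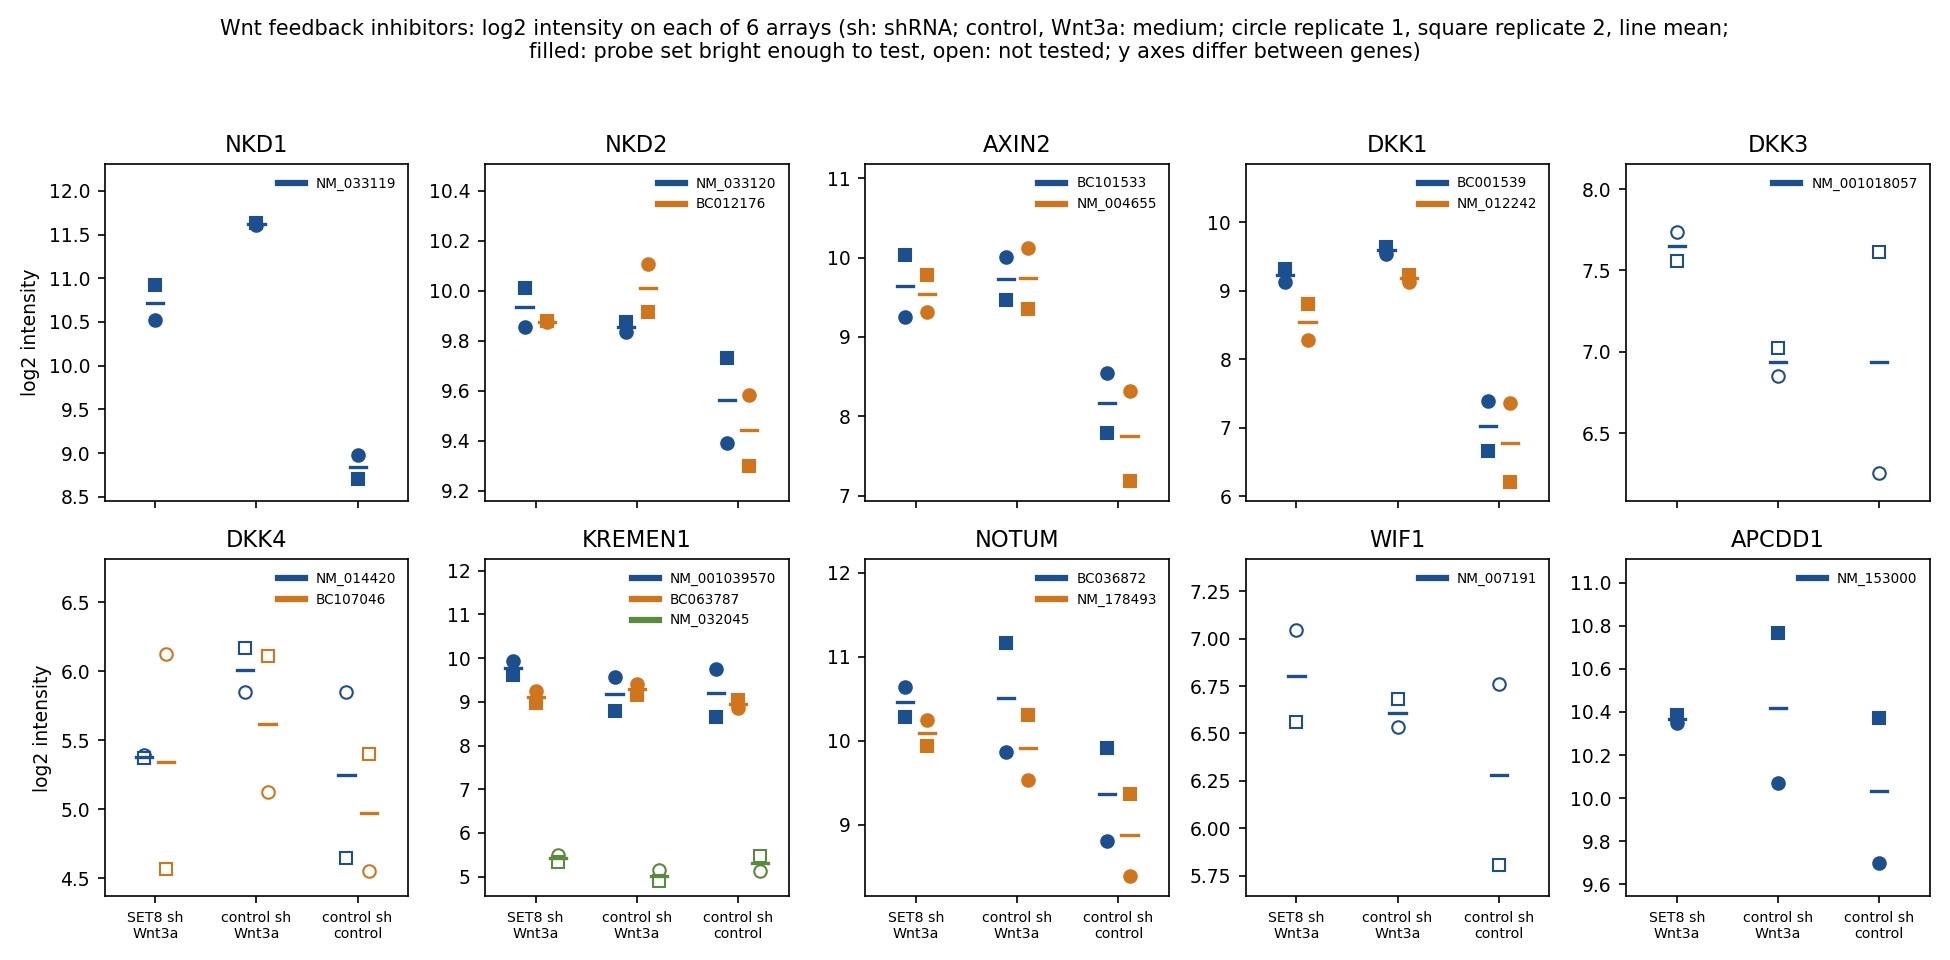
Log2 intensity (y axis, a separate scale per gene) of every probe set of the 10 inhibitors on each array, by group (x axis), with circles for replicate 1, squares for replicate 2, a line at the mean, and open symbols for probe sets too dim to test. NKD1, DKK1 and AXIN2 lie higher on all 4 Wnt3a medium arrays than on both control medium arrays, and NKD1 lies lower with SET8 shRNA (10.52 and 10.92) than with control shRNA in Wnt3a medium (11.61 and 11.63).

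NKD1 encodes a protein that binds Dishevelled and blunts the signal inside the cell. Its single probe set (NM_033119, transcript at chr16:49139741-49226142, hg18) read 11.61 and 11.63 in Wnt3a medium, against 8.97 and 8.70 in control medium. The media did not overlap, and the gap between their nearest arrays was 2.64 log2 units. The difference was 2.79 (SE 0.25, 95% interval 2.20 to 3.37), 6.90-fold higher, with an unadjusted p of 7.65e-06 and an adjusted p of 0.0911 from limma. By size of the difference NKD1 ranked 2 of the 23808 tested probe sets. NKD1 was above the median of its array on all 6 arrays, so its entry into the test did not depend on Wnt3a.

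NKD2, the close relative of NKD1, showed no such step. Its probe set BC012176 (chr5:1062076-1091793, hg18) read 10.11 and 9.92 in Wnt3a medium, against 9.58 and 9.30 in control medium. For this probe set the difference was 0.57 (SE 0.23, unadjusted p = 0.0432, adjusted p = 1.0 in limma). The brighter probe set NM_033120 read 9.84 and 9.88 in Wnt3a medium, against 9.39 and 9.73 in control medium, with a difference of 0.30 (SE 0.24, 95% interval -0.26 to 0.85). Both probe sets had non-overlapping media, by 0.33 and 0.10 log2 units.

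AXIN2 encodes a scaffold on which beta-catenin is marked for removal and is widely used as a readout of the pathway. On probe set BC101533 (chr17:60956539-60985269, hg18) it read 10.00 and 9.47 in Wnt3a medium, against 8.55 and 7.79 in control medium. The media did not overlap, with a gap of 0.92, although replicates lay far apart. The difference was 1.56 (SE 0.38, 95% interval 0.66 to 2.47), 2.96-fold higher, with an unadjusted p of 0.00433 and, in limma, an adjusted p of 1.0. The second AXIN2 probe set, NM_004655, read 10.12 and 9.35 in Wnt3a medium, against 8.32 and 7.18 in control medium, a difference of 1.99 (SE 0.44, unadjusted p = 0.00237 in limma). It was above the array median on only 1 control medium array, so it passed the filter with the help of Wnt3a arrays. In each medium with control shRNA, AXIN2 was lower on the array labelled replicate 2 on both probe sets.

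DKK1 is a secreted antagonist that binds LRP5 and LRP6 and its promoter window holds the 2 TCF and LEF words printed above. Probe set BC001539 (chr10:53744061-53746705, hg18) read 9.53 and 9.64 in Wnt3a medium, against 7.39 and 6.66 in control medium. The gap between the media, 2.15, was larger than the spread of either pair. The difference was 2.56 (SE 0.29, 95% interval 1.88 to 3.25), 5.91-fold higher, with an unadjusted p of 4.01e-05 and an adjusted p of 0.318 from limma. On NM_012242 the values were 9.13 and 9.23 in Wnt3a medium, against 7.36 and 6.21 in control medium, with a difference of 2.40 (SE 0.40, unadjusted p = 0.000432). Both DKK1 probe sets lay below the array median in control medium and entered the test only through the 4 Wnt3a arrays, on which they were bright. The 2 probe sets ranked 3 and 6 of all those tested by size of the difference, and those of AXIN2 ranked 10 and 19.

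The other Dickkopf genes were dim. DKK4, which like DKK1 blocks LRP5 and LRP6, read 5.85 and 6.17 in Wnt3a medium, against 5.85 and 4.64 in control medium on NM_014420 (chr8:42350742-42353831, hg18). The arrays of the media touched at 5.85, and the value of 4.64 lay at the level of the random control probes. Its other probe set, BC107046, read 5.12 and 6.11 in Wnt3a medium, against 4.55 and 5.40 in control medium, and overlapped. DKK3, a divergent family member whose part in Wnt signalling differs between cell types, read 6.85 and 7.03 in Wnt3a medium, against 6.26 and 7.61 in control medium (NM_001018057, chr11:11941118-11986762, hg18). The Wnt3a arrays of DKK3 fell between the control arrays. No test was made for these genes.

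KREMEN1 encodes a receptor that, with DKK1, takes LRP6 off the cell surface. Its tested probe sets gave unlike differences with overlapping 95% intervals. On NM_001039570 (chr22:27799105-27872803, hg18) it read 9.58 and 8.80 in Wnt3a medium, against 9.74 and 8.65 in control medium. These arrays differed more between replicate 1 and replicate 2 than between media, and the 95% interval of the difference was -0.99 to 0.98. BC063787 read 9.42 and 9.16 in Wnt3a medium, against 8.85 and 9.05 in control medium, a difference of 0.34 (SE 0.24, unadjusted p = 0.207). The dim probe set NM_032045, which covers a longer transcript, read 4.91 to 5.49 over all 6 arrays, no more than 0.75 above the random control probes, and was not tested.

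NOTUM, a secreted enzyme that removes the lipid which Wnt ligands need for binding, averaged higher in Wnt3a medium on both probe sets but varied widely. BC036872 (chr17:77503673-77511896, hg18) read 9.87 and 11.16 in Wnt3a medium, against 8.81 and 9.92 in control medium. The media overlapped by 0.05, and in each medium with control shRNA the array labelled replicate 1 was the lower. Its difference was 1.15 (SE 0.50, 95% interval -0.03 to 2.33, unadjusted p = 0.0549). NM_178493 read 9.53 and 10.31 in Wnt3a medium, against 8.39 and 9.37 in control medium, and did not overlap. There the difference was 1.04 (SE 0.40, unadjusted p = 0.0338, adjusted p = 1.0 in limma).

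APCDD1, a membrane protein that binds Wnt ligands and LRP5, showed the same order of replicates as NOTUM with control shRNA. It read 10.07 and 10.77 in Wnt3a medium, against 9.70 and 10.37 in control medium (NM_153000, chr18:10444624-10478694, hg18). The media overlapped, with a difference of 0.38 (SE 0.33, 95% interval -0.40 to 1.17). WIF1, a secreted protein that binds Wnt ligands directly, was too dim to test and read 6.53 and 6.68 in Wnt3a medium, against 6.76 and 5.81 in control medium (NM_007191, chr12:63730675-63801356, hg18). Its Wnt3a arrays lay between the control arrays.

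Counted over all 17 member probe sets with no filter and no test, 5 lay at least 1.5-fold higher on both Wnt3a arrays, where 1.23% of all 45033 probe sets did (552), and 0 lay that far lower, where 0.908% did. By the weaker rule that the arrays of the media did not overlap, 10 of 17 were higher against 14.8% of all probe sets, and 0 were lower against 11.9%. With the brightest probe set per gene, 9 of the 10 inhibitors had a positive difference, the smallest that of DKK3 at 0.00489 and the largest that of NKD1 at 2.79, and KREMEN1 was at -0.00469. Their median was 0.57, where the median over all 23595 genes was 0.02 and the 5th and 95th percentiles were -0.66 and 0.67. The group was uneven: 3 genes lay far above that range, NOTUM (1.15) and DKK4 (0.76, near the floor) above it, and the other 5 inside it. The sizes of the NOTUM and DKK4 differences depended on single arrays, and both stayed positive whichever array was left out. With control shRNA in Wnt3a medium, leaving out replicate 1 put NOTUM at 1.80 and leaving out replicate 2 put it at 0.50. In control medium the same steps gave 0.60 for replicate 1 and 1.70 for replicate 2. DKK4 was at 0.60 when replicate 2 in Wnt3a medium was left out, and in control medium at 1.37 without replicate 1 and 0.16 without replicate 2. Leaving out 1 array, DKK3 ranged from -0.67 to 0.68, WIF1 from -0.15 to 0.80 and KREMEN1 from -0.55 to 0.54. The signs of these differences, and so the count of positive genes, depended on single arrays.

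**Figure D2:**
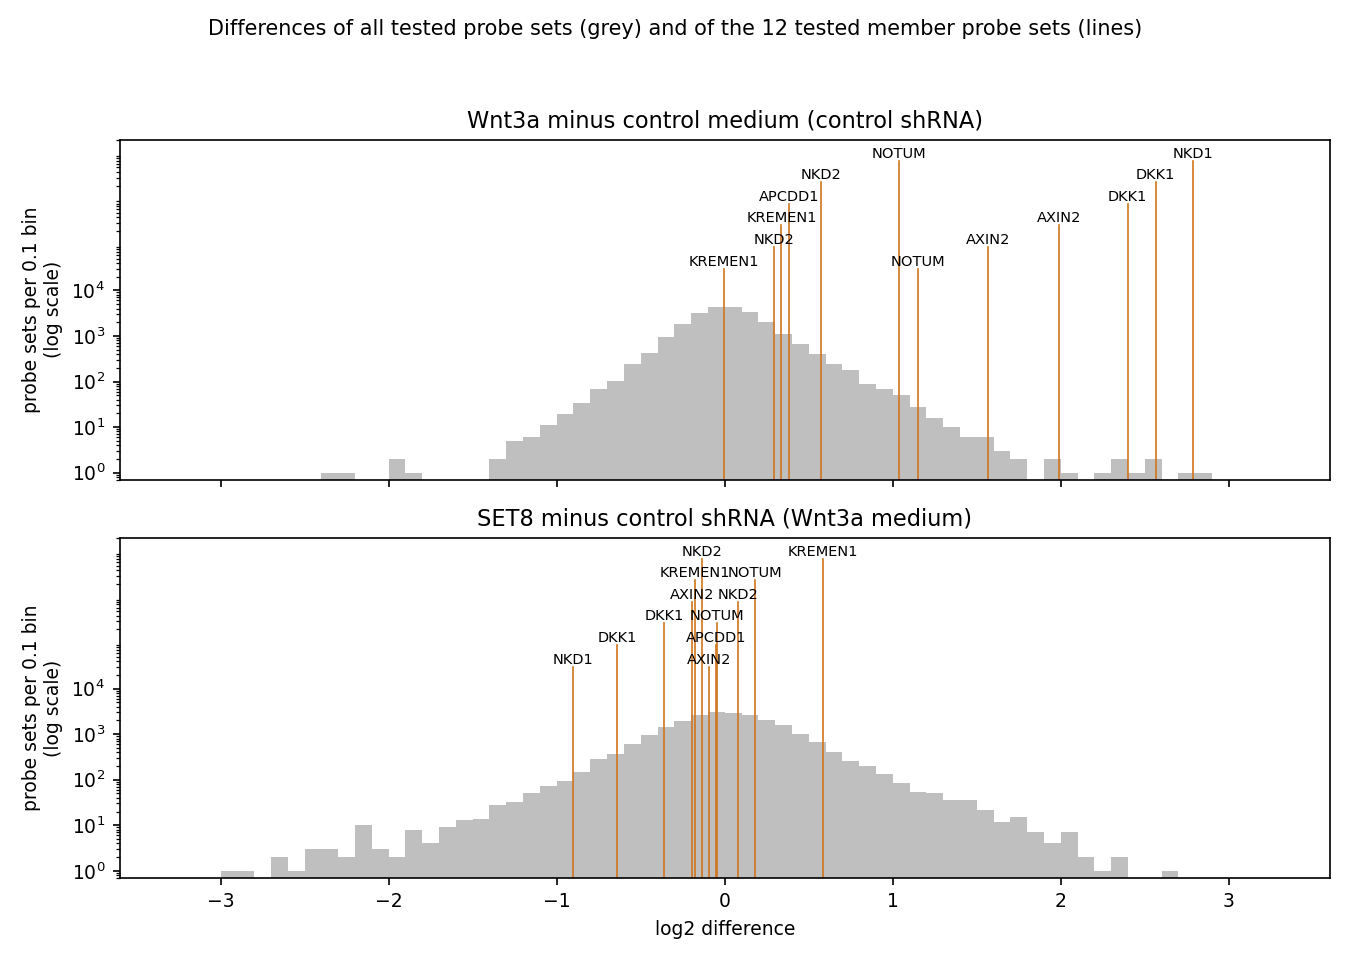
Number of tested probe sets per bin of 0.1 log2 units (y axis, log scale) by log2 difference (x axis), for Wnt3a minus control medium above and SET8 minus control shRNA below, with a line for each of the 12 tested member probe sets. In the upper panel NKD1 (2.79), both DKK1 sets (2.56 and 2.40) and both AXIN2 sets (1.99 and 1.56) lie in the right tail, while in the lower panel NKD1 (-0.90) lies farthest left and the KREMEN1 set NM_001039570 (0.58) farthest right.

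The comparison of SET8 with control shRNA, both in Wnt3a medium, asked whether these genes still reach their Wnt3a level when SET8 is reduced. NKD1 was the member that differed most: its mean was 1.87-fold lower with SET8 shRNA, and both SET8 arrays lay below both control shRNA arrays. DKK1 was also lower on both arrays of both probe sets, by less. AXIN2, NOTUM and APCDD1 had mean differences between -0.19 and 0.18 on all their probe sets, with overlapping arrays. Again 0 of the 12 tested member probe sets were called in limma at an adjusted p under 0.05, beside 0.0% of all 23808. At an unadjusted p under 0.05, 1 of 12 was lower, where 3.41% of all tested probe sets were (811), and 0 were higher, where 3.76% were (894).

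NKD1 read 10.52 and 10.92 with SET8 shRNA, against 11.61 and 11.63 with control shRNA. The shRNAs did not overlap, and the gap of 0.69 exceeded the distance between the SET8 arrays. This difference was -0.90 (SE 0.25, 95% interval -1.49 to -0.31, unadjusted p = 0.00824, adjusted p = 0.387 in limma). Ordered from the lowest, NKD1 ranked 355 of 23808, so many other probe sets were lower by more. Its SET8 arrays still lay above both control medium arrays, which read 8.97 and 8.70.

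DKK1 read 9.13 and 9.32 with SET8 shRNA, against 9.53 and 9.64 with control shRNA on BC001539. On NM_012242 it read 8.29 and 8.80 with SET8 shRNA, against 9.13 and 9.23 with control shRNA. Neither probe set overlapped between the shRNAs, with gaps of 0.21 and 0.33. The differences were -0.36 (95% interval -1.05 to 0.33) and -0.64 (95% interval -1.57 to 0.29), and both intervals from limma include 0.

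AXIN2 read 9.25 and 10.04 with SET8 shRNA, against 10.00 and 9.47 with control shRNA on BC101533. The arrays interleave, and the difference of -0.09 has a 95% interval of -0.99 to 0.81, wide enough to hold a sizeable difference either way. On NM_004655 it read 9.31 and 9.78 with SET8 shRNA, against 10.12 and 9.35 with control shRNA, a difference of -0.19 (SE 0.44). NOTUM read 10.65 and 10.28 with SET8 shRNA, against 9.87 and 11.16 with control shRNA on BC036872, so both SET8 arrays lay between the control shRNA arrays. The difference was -0.05, and its 95% interval, -1.23 to 1.13, leaves a 2-fold change possible in both directions. On NM_178493 NOTUM read 10.25 and 9.94 with SET8 shRNA, against 9.53 and 10.31 with control shRNA. The SET8 arrays again lay between the control shRNA arrays, with a difference of 0.18 (SE 0.40). APCDD1 read 10.35 and 10.38 with SET8 shRNA, against 10.07 and 10.77 with control shRNA, with the same nesting.

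NKD2 read 9.86 and 10.01 with SET8 shRNA, against 9.84 and 9.88 with control shRNA on NM_033120, a difference of 0.08 (SE 0.24, 95% interval -0.48 to 0.64). On BC012176 it read 9.87 and 9.88 with SET8 shRNA, against 10.11 and 9.92 with control shRNA, a difference of -0.14 (95% interval -0.68 to 0.41) with arrays 0.04 apart. KREMEN1 read 9.93 and 9.62 with SET8 shRNA, against 9.58 and 8.80 with control shRNA on NM_001039570, separated by 0.04 with a difference of 0.58 (SE 0.42). On BC063787 KREMEN1 read 9.25 and 8.97 with SET8 shRNA, against 9.42 and 9.16 with control shRNA, a difference of -0.18 with overlapping arrays. The 2 tested probe sets thus differ in sign for NKD2 and for KREMEN1, as they do for NOTUM above.

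Among the untested genes, DKK3 read 7.74 and 7.56 with SET8 shRNA, against 6.85 and 7.03 with control shRNA, 1.63-fold higher on the means and without overlap. With control shRNA in control medium, however, DKK3 read 6.26 and 7.61, a spread wider than the difference. DKK4 read 5.39 and 5.37 with SET8 shRNA, against 5.85 and 6.17 with control shRNA on NM_014420, while on BC107046 it read 6.13 and 4.56 with SET8 shRNA, against 5.12 and 6.11 with control shRNA. WIF1 read 7.05 and 6.56 with SET8 shRNA, against 6.53 and 6.68 with control shRNA, and overlapped.

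Over all 17 member probe sets, 1 lay at least 1.5-fold lower on both SET8 arrays, the NKD1 set, where 1.45% of all probe sets did, and 0 lay that far higher, where 1.53% did. Arrays of the shRNAs did not overlap for 5 of 17 on the lower side, against 16.7% of all probe sets, and for 3 of 17 on the higher side, against 16.4%. Without overlap, the share of members was near the background on the higher side and above it on the lower side. Both DKK1 probe sets are counted on the lower side, and the 1.5-fold count rests on NKD1 alone. These counts are small, were not tested and are a description. The median over the 10 genes was -0.05, with 4 positive and 6 negative, and the median over all 23595 genes was 0.00.

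**Figure D3:**
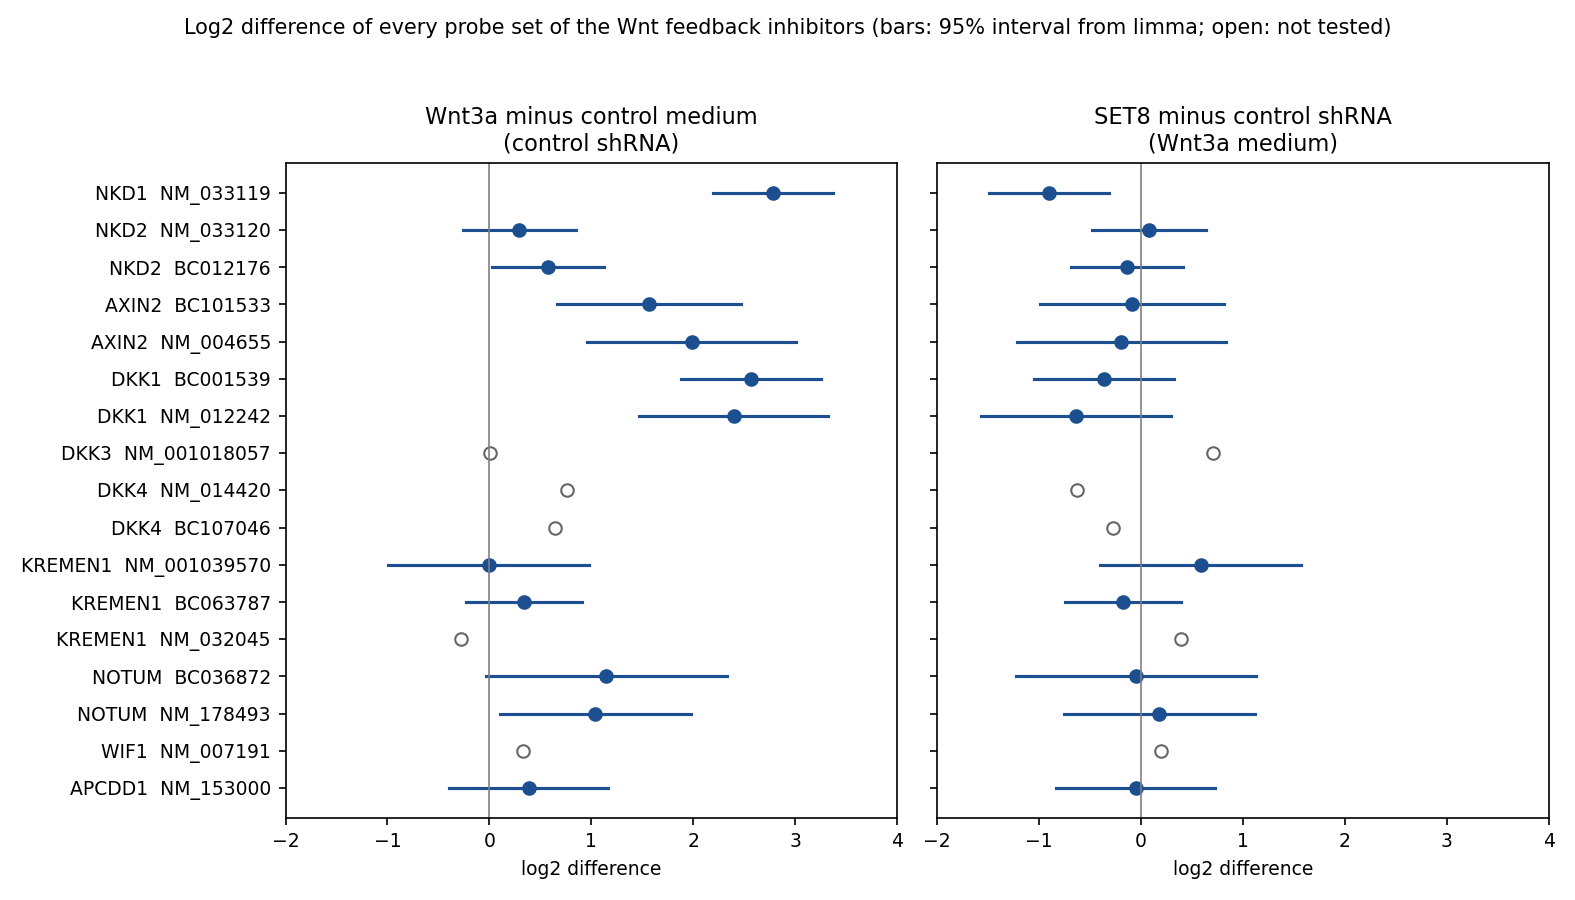
Log2 difference (x axis) of each member probe set (rows, ordered by role) for Wnt3a minus control medium on the left and SET8 minus control shRNA on the right; points are differences of means, bars 95% intervals from limma, and open points were not tested. On the left the intervals of NKD1, both AXIN2 sets, both DKK1 sets, the NKD2 set BC012176 and the NOTUM set NM_178493 lie above 0, and on the right the interval of NKD1 alone (-1.49 to -0.31) leaves out 0.

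The remaining comparison sets SET8 shRNA in Wnt3a medium against control shRNA in control medium and combines both changes. It shares arrays with each of the others, so its values are not a further test of them. Here limma called 12 of 23808 probe sets at an adjusted p under 0.05 (0.0504%), and 0 of the 12 tested member probe sets were among them. At an unadjusted p under 0.05, 6 of the 12 were higher, from 4 genes, against 6.48% of all tested probe sets, and 0 were lower against 4.07%. The 2 DKK1 probe sets and the AXIN2 set NM_004655 are again among those counted. NKD1 was 1.89 higher (SE 0.25, 3.70-fold, adjusted p = 0.0546) and DKK1 2.20 higher on BC001539 (SE 0.29, 4.60-fold, adjusted p = 0.0546), the nearest to the threshold. AXIN2 was 1.47 higher on BC101533 (SE 0.38, adjusted p = 0.206), and NOTUM 1.22 higher on NM_178493 (SE 0.40, adjusted p = 0.322). With SET8 shRNA and Wnt3a, 5 of 17 member probe sets lay at least 1.5-fold above both control arrays, where 3.23% of all probe sets did, and 0 lay that far below, where 1.95% did. These were again the probe sets of NKD1, DKK1 and AXIN2. Counting all without overlap, 9 of 17 were higher, against 20.5% of all probe sets, and 0 lower, against 17.7%; they included both probe sets of NOTUM and both of NKD2.

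Other genes of the pathway give the setting for these values. Of 22 other feedback and inhibitor genes, 14 were bright enough to test, and limma called 0 of them for Wnt3a at an adjusted p under 0.05. At an unadjusted p under 0.05, 7 of 14 were higher, with differences of 0.52 to 1.27, and 0 lower, beside the 1.61% and 0.529% given above. The smallest p belonged to SOSTDC1, a secreted antagonist that read 7.89 and 8.03 in Wnt3a medium, against 6.77 and 6.61 in control medium, and to SFRP2, a secreted Frizzled-related protein that read 8.38 and 8.78 in Wnt3a medium, against 7.76 and 7.61 in control medium. SOSTDC1 was bright enough only through arrays with Wnt3a medium, where it was high. SFRP2 was above the array median on only 1 control medium array and passed with the help of the control shRNA arrays in Wnt3a medium. It was high on those arrays, so the p-values of both genes and the count that holds them are descriptions. The median over all 22 was 0.32 for Wnt3a and -0.10 for SET8 shRNA. In the SET8 comparison SFRP2 read 7.69 and 7.67 with SET8 shRNA, a difference of -0.90 from the control shRNA (SE 0.24, adjusted p = 0.363 in limma), under the same limit.

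The proteins on which the inhibitors act had smaller medians. Receptors and co-receptors had a median Wnt3a difference of 0.14 over 18 genes, with FZD10, a Frizzled receptor, at 1.11 (SE 0.28, unadjusted p = 0.00461) the 1 gene of 16 tested with an unadjusted p under 0.05. Wnt ligands and their processing factors had a median of 0.23 over 24 genes, led by WNT11 (1.43, SE 0.24, unadjusted p = 0.000469) and WNT2B (0.98, SE 0.25). Members of the destruction complex and Dishevelled, the direct partners of AXIN2 and the NKD proteins, had a median of -0.03 over 17 genes, with 0 of 14 tested at an unadjusted p under 0.05. The 22 nuclear partners and further targets of the pathway had a median of 0.17, with TBXT, the mesoderm factor brachyury (2.26, SE 0.29), and SP5, a transcription factor (2.48, SE 0.34), at the smallest p. Both lay below the array median in control medium and entered the test only through arrays with Wnt3a medium. TBXT was the 1 gene of all 5 lists that limma called in the combined comparison, at 3.01 (SE 0.29, adjusted p = 0.0476). In none of these 4 lists did a gene pass an adjusted p of 0.05 in limma for Wnt3a or for SET8 shRNA.

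For SET8 shRNA the medians of the same 4 lists were 0.07, -0.04, 0.12 and 0.05. Named by the smallest p were FZD4 (-0.96, SE 0.29) and FZD3 (0.83, SE 0.30) among receptors, PORCN, which attaches the lipid to Wnt ligands (-0.58, SE 0.24), and WNT7B (-0.37, SE 0.23) among ligands. FZD3 was bright enough only on the SET8 shRNA arrays, where it was high, so its place here rests on that filter. GSK3B, the kinase that marks beta-catenin for removal, was at -0.49 (SE 0.22) and APC2 at 0.57 (SE 0.31), while among target genes FGF9 was at -0.83 (SE 0.23) and ID2 at 0.65 (SE 0.23).

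**Figure D4:**
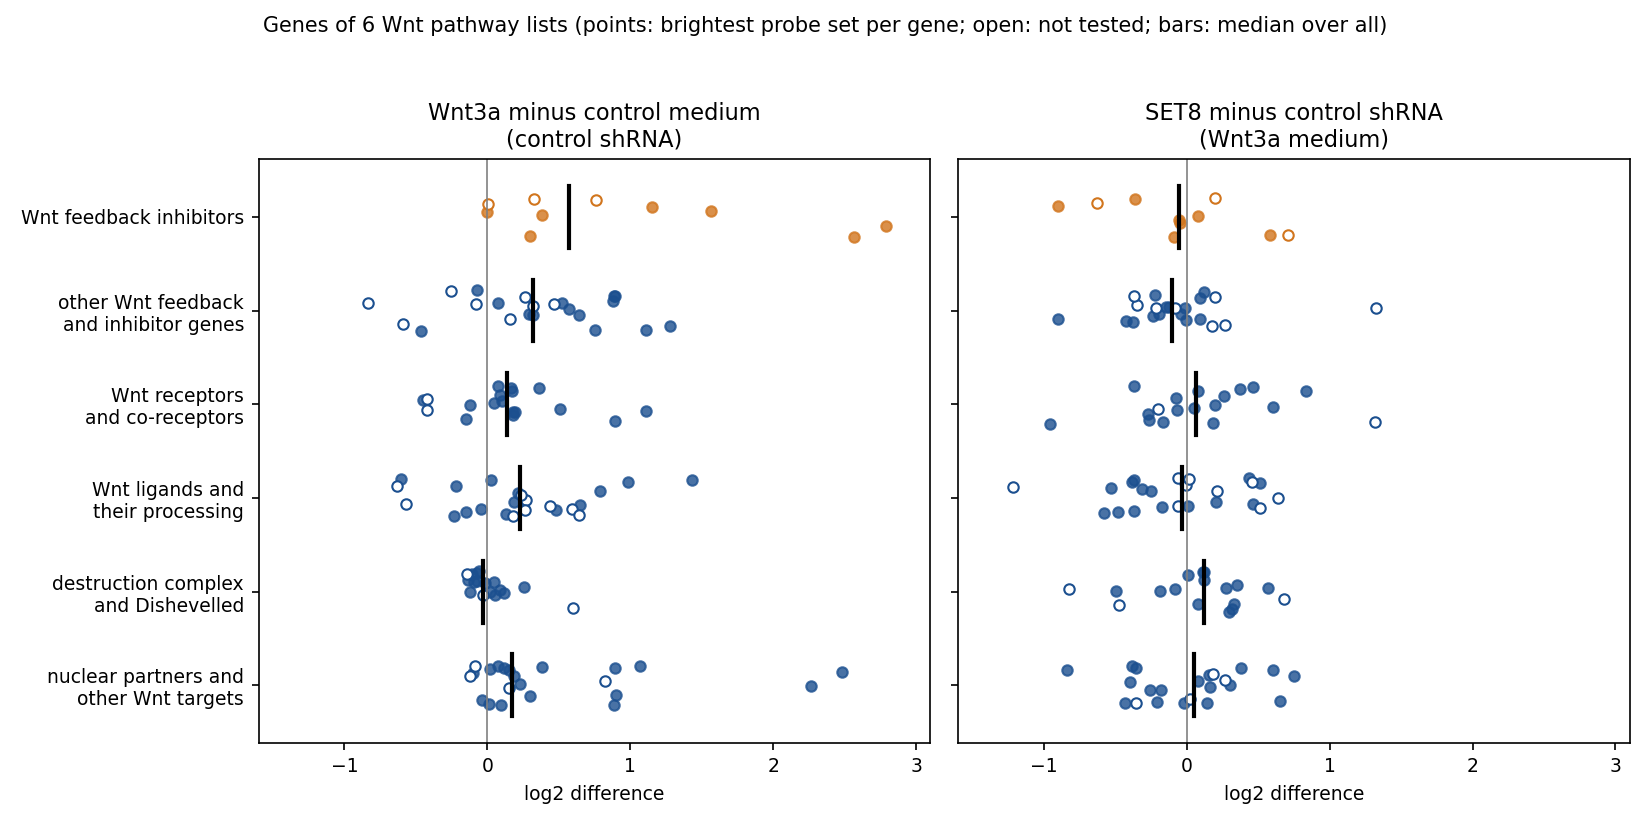
Log2 difference (x axis) of each gene, by its brightest probe set, in the Wnt feedback inhibitors (top row, orange) and 5 other Wnt pathway lists (rows, blue), for Wnt3a minus control medium on the left and SET8 minus control shRNA on the right; open points were too dim to test and bars are medians over all genes of a list. The inhibitors have the highest median for Wnt3a (0.57, against -0.03 to 0.32 in the other lists) and spread from about 0 to 2.79, while for SET8 shRNA all 6 medians lie between -0.10 and 0.12.

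Genes with the most similar pattern were sought over the 6 arrays by Pearson correlation among 12003 tested genes, as a description in which all points share the same arrays and groups. Closest to NKD1 was LMO2, a transcription cofactor, at 0.989, followed by RNF43, a ubiquitin ligase that removes Frizzled receptors, at 0.980 and ETV4, a transcription factor of the ETS family, at 0.978. LMO2 read 8.98 and 8.89 with SET8 shRNA, against 9.71 and 9.70 with control shRNA in Wnt3a medium and 6.86 and 6.84 in control medium, the same order of groups as NKD1. DACT3, which like the NKD proteins binds Dishevelled, was closest to DKK1 at 0.987, before ETV4 (0.985) and ODAPH (0.983). For AXIN2 the closest were ELMOD1 (0.996), AMIGO2 (0.992) and RHOBTB2 (0.989). ELMOD1 read 7.85 and 8.48 with SET8 shRNA, against 8.41 and 8.14 with control shRNA in Wnt3a medium and 7.44 and 7.02 in control medium. It shares with AXIN2 the order of replicates within each group as well as that of the groups, which is what the search selects for. LMO2, ODAPH and ELMOD1 lay below the array median in control medium and entered the search only through arrays with Wnt3a medium.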

How the data were processed

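RNA of HEK293 cells was measured on 6 arrays, 2 in each of 3 groups taken with their replicate numbers from the sample titles. The authors deposited 1 linear intensity per probe set and array, 45031 of 45033 summarising 3 probes, made with RMA, a method that summarises probes across arrays, per the submitters' processing notes, which name no version. The series value table holds identical values. A deposited column of another scale, named as a standard error, was not used. Positions are on hg18 per the file headers. Current symbols came from a RefSeq table joined on Entrez gene number (86.4% of probe sets matched).

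The log2 of each deposited intensity was used as it stood. The planned filter kept 23808 probe sets above the array median on at least 2 arrays. One mean per group was estimated from the 6 arrays by lmFit and eBayes of limma 3.58.1 under R 4.3.3 (3 residual and 4.32 prior degrees of freedom), which was tested on simulated data, with Benjamini-Hochberg adjustment over all probe sets tested. Array number limits precision: an exact 2 against 2 permutation test cannot give a p under 0.333 and was not used. All 10 members are named with every probe set; of each other list, the 2 genes with the smallest p per comparison, and for NKD1, DKK1 and AXIN2 the 3 most correlated genes. The members and lists were chosen with earlier results of these data known. Alternatives covered filters, normalisation, an offset, the spread estimate, probe sets per gene, a replicate block and leaving out each array.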

Additional observations from a re-analysis of the deposited data

How the results depend on the processing

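Having 2 arrays per group limits every statement, and array signal near the random control probes limits DKK4 and WIF1. NKD1 passed an adjusted p of 0.05 for Wnt3a in limma with the filter at the 60th percentile, an offset of 50 and an intensity trend (adjusted p 0.0409 to 0.0439), and its adjusted p ranged from 0.0409 to 0.780 over all alternatives; that of DKK1 ranged from 0.0878 to 1.0. In the combined comparison NKD1 passed in 7 settings and DKK1 in 6. Some alternatives are the same fit, as given below, so these are not counts of separate checks. Both DKK1 probe sets entered the test only through arrays with Wnt3a medium.

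Counts of probe sets called over the whole array moved. For Wnt3a the count of 0 became 2 with the 60th percentile filter, 1 with a filter on the mean over all arrays, 2 with the offset of 50 and 2 with the trend, and stayed 0 without any replicate. For SET8 shRNA the count of 0 became 15 with the trend and 28 with the 4 arrays of the comparison alone, and was 0 to 28 when 1 array was left out, with 28 without either control medium array, which enter through the spread alone. For the combined comparison the count of 12 became 0 with no filter, 52 with the 60th percentile filter, 1 with the mean filter, 6 with quantile normalisation, 56 with the offset, 31 with the trend, 230 with its 4 arrays alone and 49 with the mean over all probe sets of a gene. It was 0 to 230 when 1 array was left out: 22 and 5 without control medium replicate 1 and 2, 230 without either control shRNA array in Wnt3a medium, and 0 without either SET8 shRNA array. Leaving out 1 array of the group outside a comparison leaves that group with no spread to contribute. Such a fit is the same as that with the 4 arrays of the comparison alone. The cause of the other changes was not tested.

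With the replicate number as a block the counts were 0, 0 and 0 for Wnt3a, SET8 shRNA and the combined comparison. Deviations from the group mean correlated at 0.748 between same-numbered arrays of the media and at -0.294 between SET8 arrays and either, and nothing in the labels pairs them, so the block is not the main design. With the block NOTUM had an unadjusted p of 0.0385 and NKD1 one of 4.05e-05 for Wnt3a. With the SET8 numbers crossed, chosen after seeing the data, the counts were 3, 182 and 792.

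Leaving out 1 array, KREMEN1 ranged from -0.55 to 0.54 for Wnt3a; for SET8 shRNA AXIN2 ranged from -0.48 to 0.30, NOTUM from -0.70 to 0.60 and APCDD1 from -0.40 to 0.30; in the combined comparison APCDD1 ranged from -0.00557 to 0.667. With all probe sets of a gene averaged, KREMEN1 was at 0.0171 for Wnt3a, and NKD2 at -0.0287 and NOTUM at 0.0651 for SET8 shRNA. NKD1 ranged from 2.65 to 2.92 for Wnt3a and from -1.10 to -0.70 for SET8 shRNA, DKK1 from 2.20 to 2.93 and from -0.46 to -0.27, and AXIN2 from 1.19 to 1.94 for Wnt3a. The median over the 10 members was 0.44 to 0.83 for Wnt3a and -0.17 to 0.15 for SET8 shRNA.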
